A study of Homo sapiens with 12 samples.

Results

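The immediate-early transcription factors described here were 10 genes chosen by name, EGR1, EGR2, EGR3, FOS, FOSB, FOSL2, JUN, JUNB, IER2 and ATF3, of 19659 genes in the mRNA table of the series. The rule names the genes and uses no measured value, but it was written with earlier results of these data known. All 10 had rows in the table, 44 transcripts in all, of which 30 were above 0 in at least 1 library. The RNA came from cells labelled HEL, a line derived from a human erythroleukaemia, in 2 groups of 3 RNA-Seq libraries. The DMAG group had received 40 µg/ml DMAG, the 2-O-glucoside of 3,8-di-O-methylellagic acid from the herb Sanguisorba, for 3 days. The control group is labelled only as control, with no dose, day or vehicle recorded. No genotype or strain difference separates the groups, and nothing in the labels says whether the 3 samples of a group were separate cultures, so p-values measure the spread between these samples, which may be technical. The series title gives the setting as slowed proliferation with differentiation towards megakaryocytes.

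Immediate-early genes are transcribed within minutes of a growth factor, cytokine or stress signal and need no new protein for it. Kinases such as ERK act on factors already bound at these genes, among them SRF with its ELK partners and CREB. The EGR proteins are zinc finger factors that bind GC-rich DNA, while FOS and JUN proteins pair through leucine zippers into the dimer AP-1. In blood cells EGR1 is known for its part in monocyte and macrophage development, and AP-1 for its part in myeloid and megakaryocytic responses to phorbol ester. The DMAG libraries here were taken after 3 days, so a response within minutes of adding DMAG was not measured.

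The promoters of the members were compared first, because they carry the sites through which such signals are known to act. RefSeq windows of 300 bases (build GRCh38.p14, 250 before to 50 after a start) matched 9 of the 10 members, with 12 windows; EGR3 had none. Shown, 5′ to 3′ on the gene's own strand, are the 150 bases before the start for EGR1, EGR2, FOS, FOSB and ATF3. EGR1 and EGR2 hold CArG boxes, FOS and FOSB share a layout, and the ATF3 windows hold neither a CArG box nor TGACG. Capitals mark the CArG box, the element bound by SRF, the letters TGACG on either strand (CGTCA on the strand shown), which form the core of a CREB site, and TATAAA. The stretch of EGR1 is chr5:138465329-138465478 (+ strand), and that of EGR2, from the last of its 3 starts, is chr10:62816367-62816516 (- strand). FOS is at chr14:75278678-75278827 (+ strand), FOSB at chr19:45467846-45467995 (+ strand) and ATF3, from the first of its starts, at chr1:212565257-212565406 (+ strand).
EGR1: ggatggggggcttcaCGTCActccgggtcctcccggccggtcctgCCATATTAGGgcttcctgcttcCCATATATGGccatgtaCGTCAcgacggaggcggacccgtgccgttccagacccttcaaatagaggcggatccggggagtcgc
EGR2: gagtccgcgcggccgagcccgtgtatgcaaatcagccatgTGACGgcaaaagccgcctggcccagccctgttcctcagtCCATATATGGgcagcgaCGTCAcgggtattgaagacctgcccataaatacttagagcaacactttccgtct
FOS: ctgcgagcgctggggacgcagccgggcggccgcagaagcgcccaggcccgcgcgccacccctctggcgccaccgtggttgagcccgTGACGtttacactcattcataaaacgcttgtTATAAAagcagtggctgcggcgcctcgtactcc
FOSB: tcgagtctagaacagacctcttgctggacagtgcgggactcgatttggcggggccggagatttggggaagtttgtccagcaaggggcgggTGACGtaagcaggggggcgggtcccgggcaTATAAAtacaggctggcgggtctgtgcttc
ATF3: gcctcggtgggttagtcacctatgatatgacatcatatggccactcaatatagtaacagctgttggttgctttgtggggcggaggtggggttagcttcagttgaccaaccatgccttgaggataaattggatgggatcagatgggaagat
EGR1 had CArG boxes with their first base at -105 and -83, counting -1 as the base before the start, and EGR2 had 1 at -71 in 1 of its 3 windows. FOS had TGACG at -64 and TATAAA at -33, and FOSB had the same letters at -60 and -30, so these members shared both the order and the near spacing of these letters. Neither ATF3 stretch of 300 bases held a CArG box or TGACG. Any other start of ATF3 was not looked at, so this describes the stretches taken and not the gene.

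The 9 matched members were set against genes, each counted once if any of its windows held the letters on either strand. A CArG box was in 2 of the 9 members, against 1.58% of the 8295 tested genes with a window (1.29% of all 35116 windows). TGACG was in 8 of the 9 members, with none in the ATF3 windows, against 41.7% of those genes (24.6% of windows). The full palindrome TGACGTCA, which contains TGACG, was in no member, against 3.92% of the genes (1.85% of windows). TGANTCA, the letters of an AP-1 site, was in FOSL2 alone among the members, at position 5 after the start, against 6.26% of the genes (7.71% of windows). TATAAA was in FOS, FOSB, JUNB and ATF3, against 7.70% of the genes (11.5% of windows). Of all 8295 genes 22.3% rose with DMAG. The share that rose was 22.1% of 131 genes with a CArG box, 21.4% of 3456 with TGACG, 21.5% of 325 with TGACGTCA, 25.8% of 519 with TGANTCA and 26.1% of 639 with TATAAA. These are descriptions of letters in a window, not of binding. Sites more than 250 bases before a start lie outside the windows. A member without a match here may therefore carry one further away.

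Of the 10 members 8 reached a mean of 0.5 FPKM (fragments per kilobase of transcript and sequencing depth, the unit the authors deposited) and were tested. With DMAG 6 of these 8 rose, none fell and 2 did not pass (limma on log2(FPKM + 1), adjusted p under 0.05 over all genes tested). The background is high, since 22.4% of the 10394 genes tested rose and 26.1% fell. When the libraries were instead rescaled to the same summed FPKM, 3221 genes rose and 1862 fell, in place of 2333 and 2717, and the same 6 members were called. The median log2 change of the 8 tested members was 0.96 and that of all genes tested was -0.01. Over all 10 members, DMAG and control libraries did not overlap, with DMAG higher, for 8, against 23.2% of the genes above 0 in any library. Of the 8 tested members this held for 6, against 27.9% of the genes tested. A value per library comes from a whole culture, so more RNA per cell and more cells expressing a gene cannot be told apart.

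**Figure D1:**
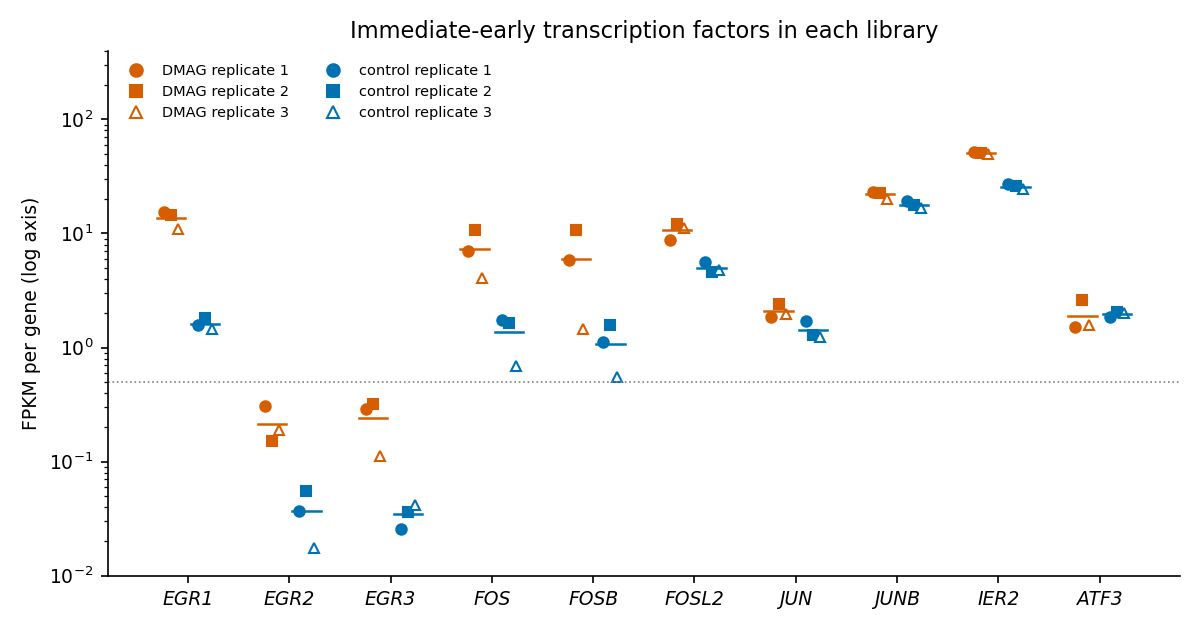
FPKM of each member, summed over its transcripts, in the 3 DMAG libraries (orange, left) and the 3 control libraries (blue, right) on a log axis, with a line at each group's mean and a dotted line at 0.5 FPKM. The groups are apart for 8 members and overlap for FOSB and ATF3.

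Lineage genes that HEL is known for were low. GATA1, the erythroid and megakaryocytic master regulator, was at most 0.142 FPKM in any library. None of 8 megakaryocyte and platelet markers reached a mean of 1 FPKM in either group, and their sum was 0.363 to 0.711 FPKM with DMAG and 0.0691 to 0.146 FPKM in controls. Of 11 granulocyte and monocyte markers 9 reached that mean, with sums of 1712 to 1866 FPKM with DMAG and 2432 to 2586 FPKM in controls. They moved both ways, since MPO, PRTN3, CEBPA, CTSG and ELANE fell while LYZ (2.65-fold), ITGAM (2.99-fold), AZU1 (1.26-fold) and SPI1 (1.24-fold) rose alongside the members, and their part in the members' rise was not tested. Of the other types looked for, 2 of 8 lymphocyte markers reached a mean of 1 FPKM (sums of 7.86 to 8.52 FPKM with DMAG and 7.98 to 8.57 FPKM in controls). The same held for 1 of 8 fibroblast and endothelial markers (1.25 to 1.99 FPKM with DMAG, 0.653 to 0.767 FPKM in controls) and none of 5 epithelial markers (0.0235 to 0.1004 FPKM with DMAG, 0.0615 to 0.173 FPKM in controls). The cells are therefore called here by their label only. Of 11 erythroid markers 6 reached a mean of 1 FPKM, and 2, TFRC and EPOR, did so without DMAG replicate 3. TFRC was at 97.6, 111 and 99.1 FPKM with DMAG and at 147, 168 and 143 FPKM in controls, and fell (limma adjusted p = 0.00170). EPOR was at 4.49 ± 0.131 FPKM with DMAG and 3.71 ± 0.270 FPKM in controls (SD, n = 3 each), and rose (limma adjusted p = 0.0305). The 11 markers summed to at most 115 FPKM in DMAG replicates 1 and 2 and 148 to 173 FPKM in controls, nearly all of it TFRC. In DMAG replicate 3 they summed to 2051 FPKM, with HBB at 1367 FPKM there. Each member is therefore also given without DMAG replicate 3 where that changes its call.

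EGR1, a zinc finger activator, rose the most. It was at 15.6, 14.4 and 11.0 FPKM in the DMAG libraries and at 1.56, 1.83 and 1.45 FPKM in the control libraries. All DMAG libraries thus lay far above all control libraries, with the lowest DMAG value in replicate 3. The mean was 13.6 ± 2.39 FPKM with DMAG and 1.61 ± 0.196 FPKM in controls (SD, n = 3 each), 8.47-fold higher (log2 change 2.48, SE 0.13, limma adjusted p = 6.88e-05). Its log2 change ranked 16 of the 10394 genes tested, counted from the highest. All of it came from 1 transcript.

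Its relatives EGR2 and EGR3, which bind similar GC-rich sites, were near the bottom of the table in both groups and below the level tested. EGR2 was at 0.307, 0.153 and 0.188 FPKM with DMAG and at 0.0372, 0.0552 and 0.0176 FPKM in controls. EGR3 was at 0.287, 0.322 and 0.112 FPKM with DMAG and at 0.0255, 0.0362 and 0.0419 FPKM in controls. Both were higher in every DMAG library than in any control library, by 5.88-fold (EGR2) and 6.96-fold (EGR3) in the means. On the log2(FPKM + 1) scale, which understates changes of low genes, these are differences of 0.23 and 0.26. With no filter on low values both passed, at limma adjusted p = 0.0165 for EGR2 and 0.0303 for EGR3. EGR4, the remaining family member, was at 0.0282 ± 0.0174 FPKM with DMAG and 0.0154 ± 0.0133 FPKM in controls (SD, n = 3 each) and was not tested.

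NAB2 and NAB1 are corepressors that bind EGR proteins, and NAB2 is itself a known EGR1 target. NAB2 rose, with 7.14, 6.15 and 6.13 FPKM in the DMAG libraries against 3.32, 3.76 and 4.11 FPKM in the control libraries (1.74-fold higher, log2 change 0.66, SE 0.09, limma adjusted p = 0.00161). The groups did not overlap. NAB1 was at 12.4 ± 1.10 FPKM with DMAG and 13.0 ± 1.63 FPKM in controls (SD, n = 3 each; limma adjusted p = 0.627). WT1, a zinc finger factor that binds GC-rich sites like those of EGR1, completes this list, is named here after its values were seen, and was at 20.6 ± 1.77 FPKM with DMAG and 18.9 ± 0.508 FPKM in controls (SD, n = 3 each; log2 change 0.12, limma adjusted p = 0.182). Of the 4 genes EGR4, NAB1, NAB2 and WT1, 3 were tested, 1 rose and none fell. The count of rises was 0 on the most abundant transcript and 2 without DMAG replicate 3 or with libraries rescaled to the same sum.

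FOS, the founding AP-1 subunit, was at 7.07, 10.8 and 4.04 FPKM in the DMAG libraries and at 1.76, 1.63 and 0.682 FPKM in the control libraries. The groups did not overlap, but both spread widely, and replicate 3 was the lowest in each. The means were 7.30 ± 3.39 FPKM with DMAG and 1.36 ± 0.590 FPKM in controls (SD, n = 3 each), 5.37-fold higher (log2 change 1.76, SE 0.34, limma adjusted p = 0.00668). On its most abundant transcript alone the log2 change was 1.04 and did not pass (limma adjusted p = 0.148).

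FOSB, a close relative that pairs with JUN proteins in the same way, showed a similar size of difference with a wider spread. It was at 5.81, 10.8 and 1.45 FPKM with DMAG and at 1.12, 1.57 and 0.552 FPKM in controls. The lowest DMAG library, replicate 3, lay below the highest control library, so the groups overlapped. The means of 6.02 ± 4.67 FPKM with DMAG and 1.08 ± 0.508 FPKM in controls (SD, n = 3 each) did not differ past the threshold (log2 change 1.51, 95% interval 0.16 to 2.87, limma unadjusted p = 0.0340, adjusted p = 0.0658). Without DMAG replicate 3 the log2 change was 2.14 and passed (limma adjusted p = 0.00501).

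FOSL2, also called FRA2, which lacks the strong activation domain of FOS, rose with less spread. It was at 8.85, 12.1 and 11.2 FPKM with DMAG and at 5.57, 4.58 and 4.79 FPKM in controls. The groups did not overlap, and here DMAG replicate 1 was the lowest of its group. The means were 10.7 ± 1.68 FPKM with DMAG and 4.98 ± 0.520 FPKM in controls (SD, n = 3 each), 2.15-fold higher (log2 change 0.96, SE 0.12, limma adjusted p = 0.00125).

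The JUN genes changed least among the members that rose. JUN, which forms AP-1 with FOS or with itself, was at 1.85, 2.42 and 1.96 FPKM with DMAG and at 1.73, 1.28 and 1.24 FPKM in controls. The lowest DMAG library lay just above the highest control library. It was 1.47-fold higher (log2 change 0.35, SE 0.11, limma adjusted p = 0.0413), and no longer passed when control replicate 2, control replicate 3 or any DMAG library was left out (limma adjusted p between 0.0551 and 0.116). JUNB, a weaker activator that can restrain JUN, was at 23.2, 22.9 and 20.2 FPKM with DMAG and at 19.2, 17.6 and 16.7 FPKM in controls. The groups did not overlap. It was 1.24-fold higher (log2 change 0.29, SE 0.07, limma adjusted p = 0.0180), which no longer passed when control replicate 2 or 3, or DMAG replicate 1 or 2, was left out (limma adjusted p between 0.0535 and 0.0585).

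IER2, a small nuclear protein of the immediate-early response, was the most abundant member in both groups and spread little between libraries. It was at 51.5, 50.3 and 50.1 FPKM with DMAG and at 27.0, 25.9 and 24.4 FPKM in controls. The 2 groups were far apart relative to their spread, with means of 50.6 ± 0.742 FPKM with DMAG and 25.7 ± 1.29 FPKM in controls (SD, n = 3 each), 1.97-fold higher (log2 change 0.95, SE 0.04, limma adjusted p = 4.81e-05).

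ATF3, a repressor of the ATF/CREB family that stress signals induce, was at 1.52, 2.60 and 1.57 FPKM with DMAG and at 1.86, 2.05 and 2.01 FPKM in controls. DMAG libraries lay on both sides of the controls. The log2 change of -0.06 had a 95% interval from -0.41 to 0.30 (limma adjusted p = 0.768), and its sign turned when libraries were rescaled to the same sum (0.01) and without DMAG replicate 1 (0.03) or 3 (0.02). Leaving out single libraries gave limma adjusted p between 0.0622 and 0.936, the lowest without DMAG replicate 2.

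**Figure D2:**
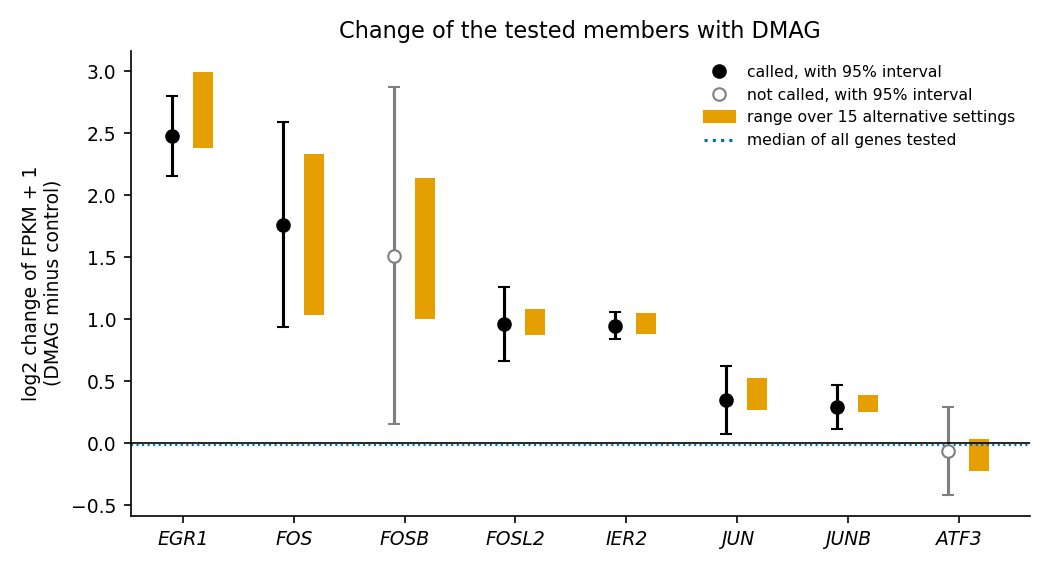
Log2 change of FPKM + 1 (DMAG minus control) of the 8 tested members with its 95% interval from limma, filled where called and open where not, beside an orange bar for the range over 15 alternative settings. EGR1 leads at 2.48, FOSL2 and IER2 lie near 1, JUN and JUNB lie at 0.35 and 0.29, and only the bar of ATF3 crosses 0.

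Per length, the order of the members' mean levels with DMAG was IER2, JUNB, EGR1, FOSL2, FOS, FOSB, JUN, ATF3, EGR3 and EGR2. In that order IER2 and JUNB stood apart from their neighbours in every library, while EGR1 and FOSL2, FOSL2 and FOS, FOS and FOSB, FOSB and JUN, JUN and ATF3, and EGR3 and EGR2 each overlapped between libraries. In controls the order was IER2, JUNB, FOSL2, ATF3, EGR1, JUN, FOS, FOSB, EGR2 and EGR3. Among these, EGR1, JUN, FOS and FOSB overlapped between control libraries, as did EGR2 and EGR3. EGR1 stood at place 3 with DMAG and at place 5 in controls, and ATF3 at place 8 with DMAG and at place 4 in controls. The places are relative to the other members, since the mean of ATF3 itself was 1.89 FPKM with DMAG and 1.97 FPKM in controls.

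Replicate 3 was often the lowest library of its group. DMAG replicate 3 was the lowest DMAG library for 6 of the 10 members, against 35.6% of all genes tested. Control replicate 3 was the lowest control library for 7 of the 10, against 34.4% of all genes tested. The DMAG replicate concerned is the one with high HBB described above, but control replicate 3 had HBB listed at 0. What part these libraries' other differences have in the members' spread was not tested.

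Split by transcript, the rises were carried by different rows in different members. Of 14 member transcripts that reached a mean of 0.5 FPKM, 4 rose (limma, adjusted over 26969 transcripts), where 4.58% of all transcripts tested rose. These were the single EGR1 transcript, ENST00000555347 of FOS, ENST00000264716 of FOSL2 and ENST00000588173 of IER2. The assignment of reads between overlapping transcripts was the authors' and can move level from one row to another, and short transcripts weigh more in a sum of FPKM.

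Within FOS, ENST00000303562 held 36.2% of the summed FPKM with DMAG and 50.2% in controls. It was at 2.91, 4.16 and 0.851 FPKM with DMAG and at 1.05, 0.860 and 0.137 FPKM in controls, so its groups overlapped (limma adjusted p = 0.249). ENST00000555347 was at 2.11, 2.28 and 1.47 FPKM with DMAG and at 0.450, 0.395 and 0.445 FPKM in controls, without overlap (log2 change 1.04, SE 0.15, limma adjusted p = 0.0164). ENST00000554617 was at 1.22, 3.06 and 0.924 FPKM with DMAG and at most 0.0809 FPKM in controls, and missed the threshold (limma adjusted p = 0.0591), which it passed with a pseudocount of 0.1 (log2 change 3.52, limma adjusted p = 0.0229).

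In FOSB the low value of DMAG replicate 3 lay in particular rows. ENST00000586615 and ENST00000417353 were at 0.890 and 3.23 FPKM and at 0.947 and 2.52 FPKM in DMAG replicates 1 and 2, and both were listed at 0 in DMAG replicate 3. ENST00000590335, the largest row, was at 2.82, 4.36 and 1.01 FPKM with DMAG and at 0.272, 0.623 and 0.0948 FPKM in controls (limma adjusted p = 0.103). Without overlap between groups, that row was the nearest of the FOSB transcripts to a call.

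FOSL2 and IER2 rested on a main row each. ENST00000264716 held 86.7% of the FOSL2 level with DMAG and 89.96% in controls. ENST00000588173 held 95.3% of the IER2 level with DMAG and 99.5% in controls. A second IER2 row, ENST00000292433, reached 6.73 FPKM in DMAG replicate 3 while no other library exceeded 0.0197 FPKM, and in DMAG replicate 3 the main row was at 43.3 FPKM, its lowest with DMAG, so the even sum of IER2 depended on adding these rows. Of ATF3, ENST00000341491 held 87.8% with DMAG and 86.5% in controls.

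**Figure D3:**
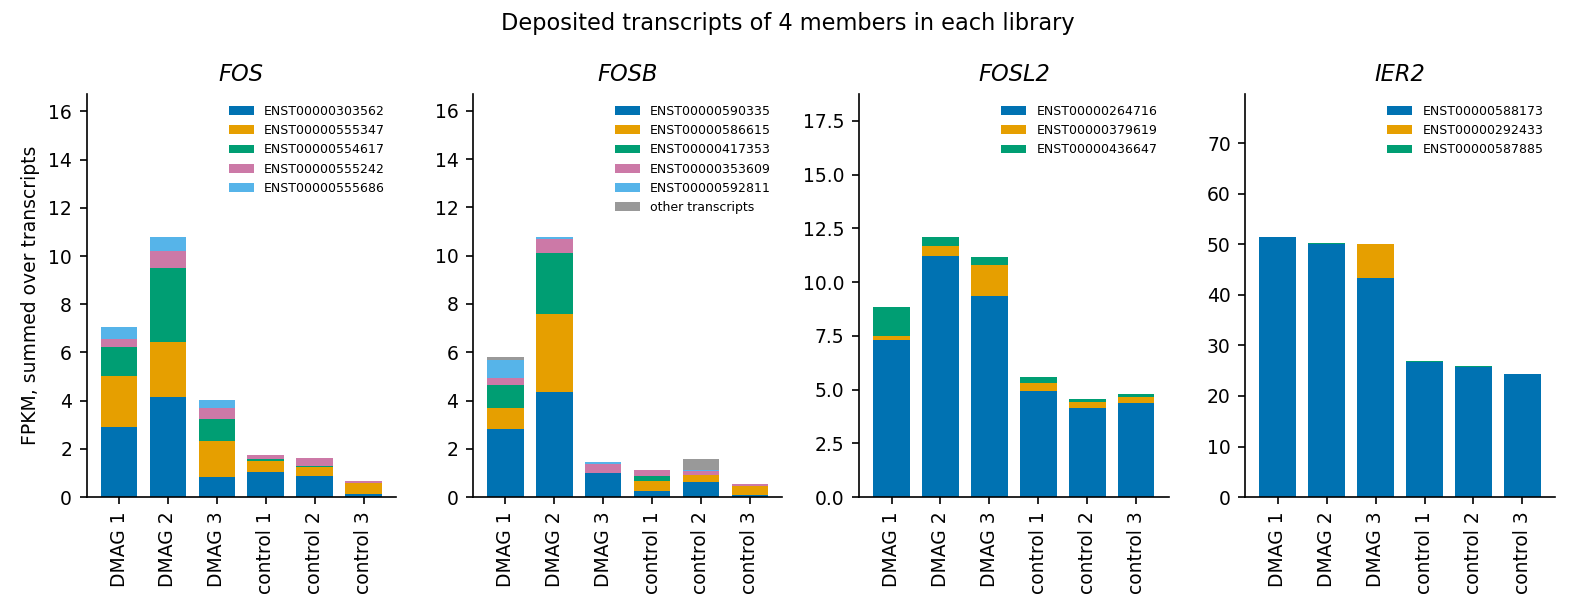
FPKM of the deposited transcripts of FOS, FOSB, FOSL2 and IER2, stacked to the gene sum, for DMAG replicates 1 to 3 (left) and control replicates 1 to 3 (right), with transcripts beyond the 5 most abundant of FOSB in grey. FOS and FOSB are made of several rows whose shares differ between libraries, while FOSL2 and IER2 consist mostly of 1 row.

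Genes whose profile over the 6 libraries was most like that of a member were found by the root mean square difference of centred log2(FPKM + 1) values, smaller being more alike, among genes that averaged 1 FPKM or more. For EGR1 these were RRP1 (0.146), ADAMTS20 (0.167) and RRP15 (0.170). For FOS they were CACNA2D4 (0.181), CD69 (0.267) and CXCL8 (0.279). These shared its low DMAG replicate 3, which choosing them for likeness over the same libraries favours. CD69, a surface marker of leukocyte activation, was at 12.9, 13.2 and 6.31 FPKM with DMAG and at 2.43, 1.61 and 1.65 FPKM in controls. CXCL8, the neutrophil-attracting chemokine interleukin-8, was at 99.3, 79.0 and 54.1 FPKM with DMAG and at 26.1, 25.3 and 18.2 FPKM in controls.

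These distances are not scaled to the size of a member's change, so they do not rank likeness across members. The other called members changed less than EGR1 and FOS and had neighbours at smaller distances. For FOSL2 these were TRIOBP (0.0633), CARF (0.0718) and NDRG1 (0.0783). For IER2 they were ANKRD13D (0.0336), AP5B1 (0.0348) and ST3GAL2 (0.0355). For JUN they were PLIN2 (0.0209), TESK2 (0.0307) and CGRRF1 (0.0411), and for JUNB ARL6IP6 (0.0302), SQSTM1 (0.0308) and ITPRIP (0.0310).

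**Figure D4:**
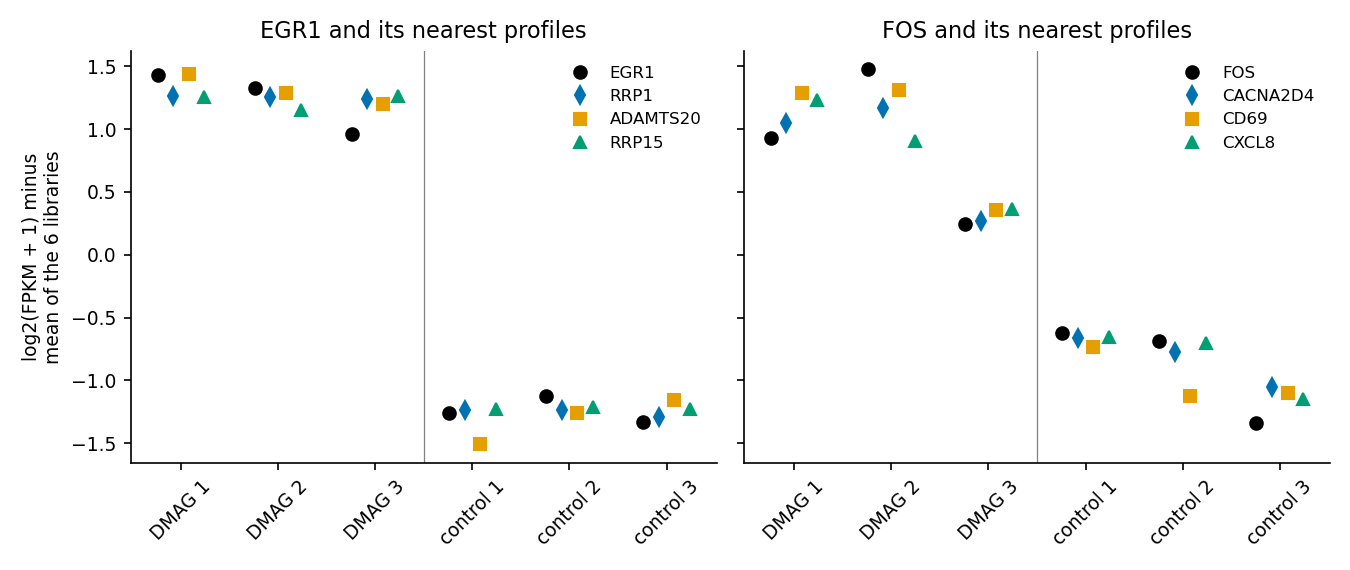
Log2(FPKM + 1) minus the mean of the 6 libraries for EGR1 (left) and FOS (right), in black, and for the 3 genes nearest to each, in DMAG replicates 1 to 3 and control replicates 1 to 3. FOS and its neighbours CACNA2D4, CD69 and CXCL8 are lowest among the DMAG libraries in replicate 3. The neighbours were chosen for likeness over these same libraries.

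The relatives of the members are read against all genes tested, of which 22.4% rose and 26.1% fell. Of 18 further FOS, JUN, ATF, BATF, CREB and MAF genes 16 could be tested. With DMAG 2 rose, 6 fell and 8 gave no call, with a median log2 change of -0.14. On the most abundant transcript 1 rose and 4 fell, with libraries rescaled to the same sum 4 rose and 6 fell, and 1 rose without control replicate 1 or 3 or DMAG replicate 2 or 3. JUND, the JUN family member that is expressed steadily, was at 12.7 ± 1.70 FPKM with DMAG and 12.8 ± 0.704 FPKM in controls (SD, n = 3 each; limma adjusted p = 0.962). FOSL1, or FRA1, was at 2.35 ± 0.138 FPKM with DMAG and 2.99 ± 0.530 FPKM in controls (limma adjusted p = 0.0993). The dimer partners BATF3 and MAFK fell 1.67-fold and 1.74-fold (limma adjusted p = 6.39e-04 and 2.40e-04).

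ATF relatives went both ways. ATF4, the factor that the integrated stress response makes, was at 159.9 ± 10.53 FPKM with DMAG and 249.5 ± 17.2 FPKM in controls and fell 1.56-fold (log2 change -0.64, SE 0.07, limma adjusted p = 6.92e-04). ATF5 was at 61.8, 80.3 and 83.3 FPKM with DMAG and at 161, 248 and 257 FPKM in controls and fell 2.96-fold (limma adjusted p = 0.00156). ATF2, a partner of JUN, fell 1.21-fold, while ATF6, the endoplasmic reticulum stress sensor, rose 1.28-fold and ATF7 rose 1.13-fold, and ATF1 did not pass (limma adjusted p = 0.146).

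ATF3 is a known target of ATF4, and most of the other genes of that response were lower. Of 20 integrated stress response genes 19 could be tested. With DMAG 14 fell, CEBPB and CEBPG rose and 3 gave no call, with a median log2 change of -0.71. Leaving out DMAG replicate 3 gave 3 rises, and leaving out any other single library gave 1, with 14 falls each time. SLC7A11, the cystine transporter, was at 3.797 ± 0.161 FPKM with DMAG and 14.2 ± 0.504 FPKM in controls. DDIT4, an inhibitor of mTORC1 signalling, was at 29.2 ± 1.18 FPKM with DMAG and 71.0 ± 2.15 FPKM in controls. The serine synthesis enzymes PSAT1 and PHGDH fell 3.09-fold and 3.93-fold (limma adjusted p = 3.10e-05 and 4.06e-05). ATF3 thus did not pass in the same libraries in which 14 of these 19 genes fell.

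Other immediate-early genes rose more often than they fell. Of 35 listed 23 could be tested. With DMAG 9 rose, 1 fell and 13 gave no call, with a median log2 change of 0.26. IER3, which blunts apoptosis and prolongs ERK activity, was at 5.85, 4.84 and 3.31 FPKM with DMAG and at 0.976, 1.14 and 0.908 FPKM in controls, without overlap (4.63-fold higher, log2 change 1.47, SE 0.17, limma adjusted p = 8.79e-04). MCL1, a survival protein of the BCL2 family, was at 86.1 ± 12.0 FPKM with DMAG and 45.3 ± 4.23 FPKM in controls, and PHLDA1 was at 3.22 ± 0.347 FPKM with DMAG and 1.001 ± 0.349 FPKM in controls (SD, n = 3 each; limma adjusted p = 0.00116 and 0.00144). The gene that fell was ZFP36L2, an RNA-binding protein that destabilises mRNAs, by 1.36-fold.

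ERK feedback genes, which are induced by ERK and dampen it or transmit its output, had 15 of 20 genes tested, of which 9 rose, 3 fell and 3 gave no call, with a median log2 change of 0.44. On the most abundant transcript 5 rose and 1 fell, and with libraries rescaled to the same sum 11 rose and 1 fell. The number that fell was also 1 without control replicate 1 or 3 or DMAG replicate 1 or 3, and under the replicate block. DUSP6, the ERK phosphatase, was at 35.1, 33.4 and 26.7 FPKM with DMAG and at 13.7, 13.8 and 13.7 FPKM in controls, and DMAG replicate 3 was again the lowest of its group. ETV5, an ETS factor, rose 1.53-fold (limma adjusted p = 1.54e-04) and SPRED3, an inhibitor of the RAS to RAF step, 2.46-fold (limma adjusted p = 6.07e-04). The 3 that fell, named here after their values were seen, were DUSP2 (1.54-fold), SPRED1 (1.26-fold) and SPRY2 (1.12-fold). Their limma adjusted p-values were 0.00512, 0.0426 and 0.0384. ETV4, a relative of ETV5, did not pass (limma adjusted p = 0.229). IER3 and PHLDA1 stand in this list as well as in the previous one.

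The mRNA levels of kinases, DNA-bound factors and coactivators upstream of the members had median changes near 0. These levels do not measure the activity of the proteins, which was not tested. Of 24 MAP kinase pathway kinases 21 could be tested. With DMAG 5 rose, 4 fell and 12 gave no call, with a median log2 change of 0.02. On the most abundant transcript 3 rose and 2 fell, with libraries rescaled to the same sum 7 rose and 1 fell, and without DMAG replicate 1 3 rose and 3 fell. RPS6KA5, or MSK1, a kinase that phosphorylates CREB and histone H3 at immediate-early genes, was at 4.24 ± 0.365 FPKM with DMAG and 2.70 ± 0.191 FPKM in controls, and RPS6KA2 at 0.438 ± 0.109 FPKM with DMAG and 1.42 ± 0.188 FPKM in controls (SD, n = 3 each; limma adjusted p = 0.00260 and 0.00123). MAPKAPK2 rose 1.18-fold and RPS6KA1 fell 1.12-fold. Of 8 tested (9 listed) genes for SRF, its partners and coactivators 3 rose and none fell, with a median log2 change of 0.07. The 3 were ELK3 (1.58-fold), ELK4 (1.11-fold) and the coactivator EP300 (1.11-fold), and the count was 1 without DMAG replicate 1 or 3 or control replicate 3, and 5 with libraries rescaled to the same sum.

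Genes known as targets of EGR1 or AP-1 had 8 of 12 tested genes higher and 2 lower, with a median log2 change of 0.47, and 13 further genes on that list lay below the level tested. On the most abundant transcript 5 rose, and with no filter on low values 13 of 24 rose. VIM, the intermediate filament vimentin, was at 118, 119 and 102 FPKM with DMAG and at 32.0, 32.9 and 32.7 FPKM in controls (3.48-fold higher, limma adjusted p = 2.94e-05). ITGAX, the myeloid integrin CD11c, was at 4.49 ± 0.0216 FPKM with DMAG and 0.709 ± 0.266 FPKM in controls, and MMP14, a membrane metalloprotease, rose 2.92-fold (limma adjusted p = 1.37e-04 and 9.62e-04). IL1B, interleukin-1 beta, instead fell, to 1.43 ± 0.121 FPKM with DMAG, against 3.44 ± 0.341 FPKM in controls (SD, n = 3 each; limma adjusted p = 4.14e-04). These counts describe the lists and were not tested as sets. The lists share genes beyond IER3 and PHLDA1, so their counts are not independent. Among others, ATF4, ATF5 and JDP2 are in both the relatives and the integrated stress response list. NAB2 and TNFAIP3 are in this target list as well as in an earlier one.

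**Figure D5:**
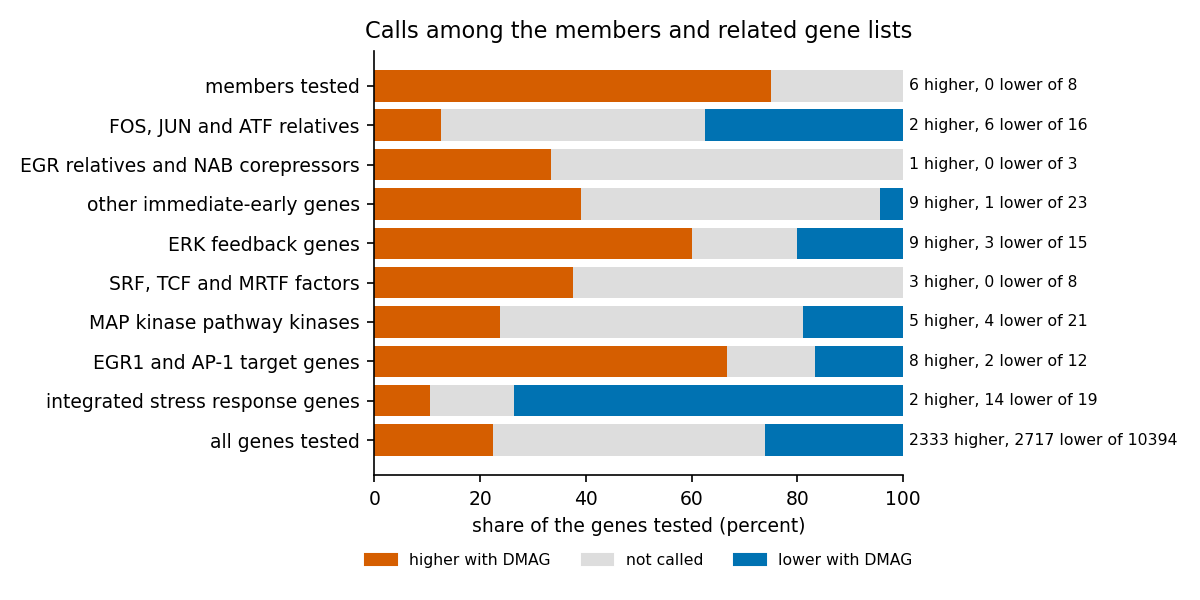
Share of the genes tested that rose (orange), were not called (grey) or fell (blue) with DMAG, for the tested members, 8 related gene lists and all 10394 genes tested, with counts at the right. The members (6 of 8), the EGR1 and AP-1 target genes (8 of 12) and the ERK feedback genes (9 of 15) have the largest orange shares, and integrated stress response genes (14 of 19) the largest blue share. Some genes are shared between lists.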

How the data were processed

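RNA-Seq libraries of 3 DMAG and 3 control samples were made from ribosomal RNA-depleted RNA with dUTP in the second strand, per the labels' protocols. The authors deposited FPKM per transcript (83027 rows), and StringTie 1.3.3, HISAT2 2.0.4, Bowtie and the build GRCh38 are listed, without roles, per the submitters' processing notes. How reads were counted is not stated. The FPKM of a gene's transcripts was added up. Genes averaging 0.5 FPKM or more entered limma 3.58.1 (mean trend, R 4.3.3) as log2(FPKM + 1), Benjamini-Hochberg adjusted over 10394 genes and called under 0.05. The steps were tested on simulated data.

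Summed FPKM was 328350 to 332916 with DMAG and 348907 to 357821 in controls. Absolute depth is unknown. From the commonest ratio among low single-transcript genes, depth was estimated at 0.974 to 1.10 times that of control replicate 1 with DMAG and 1.01 to 1.06 times in the other controls. Ratios far from equal depth were left out beforehand, so a large difference in depth could not have shown. The commonest ratio rested on 9 of 70, 13 of 75 and 14 of 76 genes with DMAG, and 12 of 80 and 22 of 93 in controls. FPKM cannot be compared with counts, so no count model or count-based interval was used. The intervals given are from limma on log2(FPKM + 1).

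Members and lists were chosen with earlier results of these data known. Every member was named, with up to 4 called genes of at least 1 FPKM per list by smallest p, any EGR, FOS, JUN, ATF or NAB relative, and the 3 nearest profiles of each called member. No annotated lncRNA among 2819 transcripts carried a member's name. Alternatives were other pseudocounts, filters, scalings, single transcripts, no mean trend, a block for the replicate number, and each library left out in turn. Promoters are from RefSeq. The small RNA, circular RNA and unannotated lncRNA tables were not used here.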

Additional observations from a re-analysis of the deposited data

How the results depend on the processing

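The number of members called stayed between 4 and 7 over 15 alternative settings, none of them calling a member lower, and between 4 and 6 when single libraries were left out. EGR1, FOSL2 and IER2 were called under all 15. The log2 change of EGR1 ran from 2.38 to 3.00, that of FOSL2 from 0.88 to 1.08 and that of IER2 from 0.89 to 1.05. FOS lost its call under 1 setting, JUN under 8 and JUNB under 4, while FOSB gained one under 3, the most abundant transcript (limma adjusted p = 0.0485), the replicate block and without DMAG replicate 3. ATF3 was called under none. Over all genes the 5050 calls became 3354 on the most abundant transcript; the cause was not tested. Leaving out single libraries gave 4224 to 4593. Of the member transcripts 4 were called, and 5 with a pseudocount of 0.1.

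Same-numbered DMAG and control libraries showed little shared deviation across genes (correlations of -0.005, 0.043 and 0.027), and the main fit used no pairing. Such correlations cannot settle whether same-numbered samples were handled together, which the labels do not say. With the replicate block 6 members and 4491 genes were called. FOSB then passed (limma adjusted p = 0.0247) and JUN did not (0.0879). No lncRNA row matched a member, so that alternative was not run. With no depth known, values near 0.03 FPKM, as for EGR2 and EGR3 in controls, carry an unknown counting error.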

Other observations

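Among genes of the related lists outside the naming rule, further rises were seen, and the following were chosen after their values were seen. DUSP1, the nuclear MAP kinase phosphatase, was at 1.33, 1.96 and 1.28 FPKM with DMAG and at 0.305, 0.260 and 0.124 FPKM in controls (6.64-fold higher, limma adjusted p = 0.00107). SGK1, a kinase induced by serum and glucocorticoids, was at 1.78, 2.05 and 1.06 FPKM with DMAG and at 0.407, 0.284 and 0.257 FPKM in controls (5.17-fold higher, limma adjusted p = 0.00299). Neither gene's groups overlapped, and for both DMAG replicate 3 was the lowest DMAG library. CSRNP1, a nuclear factor of the immediate-early class, rose 1.64-fold (limma adjusted p = 0.00562). TNFAIP3, the inhibitor of NF-kB known as A20, was at 11.3 ± 0.672 FPKM with DMAG and 7.89 ± 0.436 FPKM in controls (SD, n = 3 each; limma adjusted p = 0.00169).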
